A study of Drosophila melanogaster with 5 samples.

Results

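The subject here is 17 probe sets with a low signal in heads of 1 Drosophila strain and a higher one in the other. A probe set, a group of short probes for 1 transcript, was taken when its signal was 20 or less on every array of 1 strain and 50 or more on every array of the other. Members were therefore chosen by these signals themselves. Among 13966 probe sets in the deposited table, controls aside, 20 met both limits. Of these, 3 (Mst84Db, IFT54 and beat-VII) belong to gene groups set aside by name, which left 9 that were on in otd-uvi and 8 that were on in Canton S. The 17 named 15 genes, and 2 probe sets (151404_at and 151860_at) carry no gene name in the array's annotation table. Heads of Drosophila melanogaster pupae were collected 80 h after pupa formation, 15 to 20 heads in each RNA extraction, with 1 extraction on each array. Canton S, the wild type below, is a laboratory strain and gave 2 arrays. The strain otd-uvi carries a mutant allele of oc (orthodenticle, otd) that the labels call eye-specific; this mutant gave 3 arrays. No agent was applied to either group, and neither the sex of the pupae nor the genetic background of otd-uvi is given in the labels. Each group is a single strain, so whatever else differs between the strains is part of every value below.

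The protein Otd is a homeodomain transcription factor of the eye and brain, and the study compared the strains to learn which head genes depend on it. Several of the 15 genes encode enzymes that process foreign or fatty compounds. Cytochrome P450s oxidise such compounds, UDP-glycosyltransferases attach sugars to them, and insects have large families of both, many of whose genes lie in tandem groups of close relatives. Another of the genes encodes the receptor for ecdysone, the steroid hormone that times metamorphosis.

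The signals come from the MAS5 algorithm on a linear scale, in arbitrary units, and levels of different probe sets are not comparable as amounts of RNA. The median signal of the 5 arrays lay between 39.96 and 43.1, and a signal of 20 stood at percentile 32.6 to 38.4 of an array. A signal of 50, the limit for on, stood at percentile 54.0 to 54.7, not far above the median. For reference, 8 mouse and yeast control probe sets without a target in fly RNA had a median of 3.38 ± 0.434 in the wild type and 7.39 ± 0.472 in the mutant (SD, n = 2 and 3 arrays; two-sided p = 0.1 by exact permutation, the lowest possible p with 5 arrays). The brightest of these controls read 9.30 and 9.13 on the wild-type arrays, and 22.9, 11.2 and 16.2 on mutant replicates 1, 2 and 3. RNA degradation raises the signal of a transcript's 3-prime end over its 5-prime end, and the mean log2 ratio of these for 3 fly controls was 1.39 ± 0.0317 in the wild type and 1.63 ± 0.285 in the mutant (two-sided p = 0.4 by exact permutation). The mutated gene oc (143425_at) read 71.7 and 56.4 in the wild type and 27.6, 46.8 and 59.8 in the mutant, so its groups overlapped. Sums of marker genes for several cell types also did not overlap between the strains, beside a background of 18.6% of all probe sets that were higher and 15.4% that were lower in otd-uvi without overlap. Summed signals of 5 measured photoreceptor markers were 11228 to 12216 in Canton S and 5203 to 6239 in otd-uvi, and 4 of the 5 were lower without overlap, with 4 of the 5 past the threshold in limma (adjusted p under 0.05). For 4 neuron markers the sums were 751 to 875 and 293 to 493 (3 lower). For 3 glia markers they were 2014 to 2644 and 1542 to 1911 (1 lower). No marker of either list was past the threshold. The lower glia marker, Gs2, made up most of the glia sum. It read 1822 and 2431 in the wild type and 1395, 1646 and 1334 in the mutant. The groups of repo and moody overlapped, so the glia sum mainly follows 1 gene. Sums were higher in otd-uvi for testis markers, at 156 to 176 and 364 to 773 (6 of 7 higher, 2 past the threshold), for hemocyte markers, at 412 to 414 and 448 to 613 (3 of 6 higher, 1 lower, 1 past the threshold), and for gut markers, at 94.98 to 115 and 117 to 227 (3 of 5 higher, 0 past the threshold). Fat body, muscle and antenna sums overlapped. The markers dj (testis), PPO1 (hemocyte) and alphaTry (gut) were off on every array. No member is on these lists, and the part of such cells in the members' values was not tested. In whole heads, fewer cells of a type and less RNA per cell cannot be told apart.

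A signal off in 1 strain and on in the other was rare in both directions. Of 4577 probe sets off in Canton S, 11 (0.240%) were on in otd-uvi, and of 3566 off in otd-uvi, 9 (0.252%) were on in Canton S. Without the genes set aside by name these were 0.0644% and 0.0573% of all probe sets. Far more probe sets were off in both strains (3301) or on in both (5098). A middle group was lopsided: 1265 probe sets were off in Canton S and neither off nor on in otd-uvi, against 256 the other way round. These counts are not like for like, since each limit had to hold on 2 Canton S arrays but on 3 otd-uvi arrays. The median mouse and yeast control was also 3.38 in Canton S and 7.39 in otd-uvi. The part of either in the counts was not tested. The split of members leaned with the scaling. As deposited, 52.9% of the 17 were on in otd-uvi. After quantile normalization of the signals, 6 were on in otd-uvi and 11 in Canton S, or 35.3% in otd-uvi, and the members lost were CG1941, Cbs and flz. With every array scaled to a common median the numbers were 9 and 10, or 47.4%. Every array narrowed the choice. Without Canton S replicate 1 the limits admitted 40 probe sets on in otd-uvi and 17 on in Canton S, and without Canton S replicate 2 they admitted 23 and 14. Without otd-uvi replicate 1, 2 or 3 the numbers were 15 and 19, 20 and 13, and 11 and 8.

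**Figure D1:**
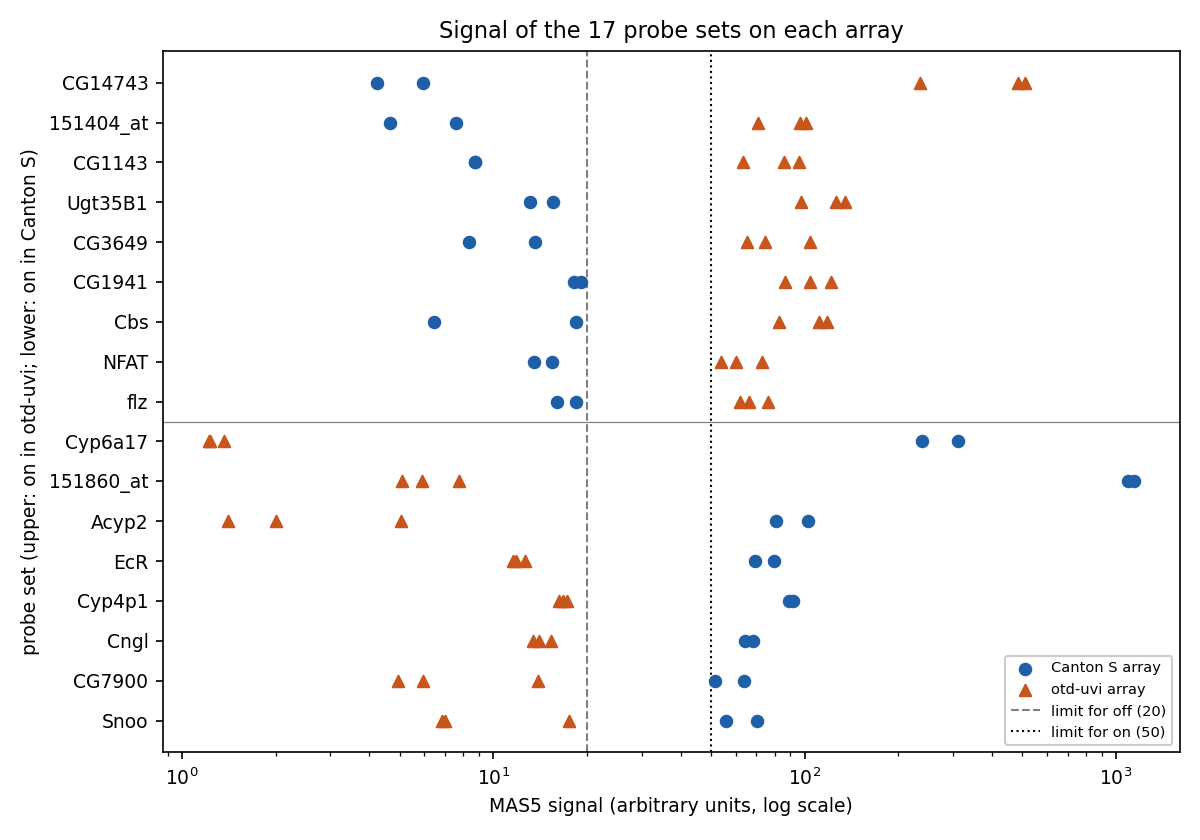
Signal (MAS5, arbitrary units, log scale) of each of the 17 probe sets, 1 row each, on the 2 Canton S arrays (circles) and the 3 otd-uvi arrays (triangles); the dashed line marks the limit for off (20) and the dotted line the limit for on (50). CG14743 stands apart among the upper 9, and Cyp6a17, 151860_at and Acyp2 among the lower 8.

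The label of off fitted some members better than others. Of the 17, 7 were at or under the array's brightest mouse or yeast control on every off array: CG14743, CG1143 and 151404_at in Canton S, and Cyp6a17, Acyp2, CG7900 and 151860_at in otd-uvi. For these 7 a fold is a lower bound, set against that control on each array, and is written as at least so many fold. The other 10 kept a low signal above the brightest control on 1 or more off arrays, so for them off means dim. Their folds are ratios of geometric means. The brightest control read 9.30 or less on Canton S arrays and 11.2 or more on otd-uvi arrays. The same signal could therefore be under it in otd-uvi and above it in Canton S. Since signals chose the members, all of these values describe them and test nothing. By limma over all probe sets, 13 of the 17 had an adjusted p under 0.05, where 0.773% of all probe sets did: 7 of 9 were higher in otd-uvi (0.322% of all) and 6 of 8 lower (0.451% of all). The choice of members favours such calls, so these counts are no test of them. NFAT, flz, CG7900 and Snoo were the members outside that number.

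Among probe sets on in otd-uvi, 3 belong to genes for metabolic enzymes. Ugt35B1 (142271_at), a UDP-glycosyltransferase gene, read 15.5 and 13.1 in the wild type and 126, 135 and 97.7 in the mutant, a geometric mean 8.30-fold higher in otd-uvi. Even its lowest otd-uvi array was 6.29 times its brighter Canton S array. Cbs (154013_at) encodes cystathionine beta-synthase, which joins homocysteine to serine on the way to cysteine. It read 6.43 and 18.5 in the wild type and 118, 82.4 and 111 in the mutant, or 9.41-fold. The Canton S arrays disagreed here more than for any other of these 9 probe sets, and without replicate 1 of Canton S the log2(signal + 8) difference went from 2.50 to 2.06. CG1941 (146762_at) is a relative of the diacylglycerol acyltransferase gene Dgat2, which makes storage fat. Its signals were 19.2 and 18.1 in the wild type, just under the limit, and 104, 121 and 86.6 in the mutant, or 5.54-fold. All 3 otd-uvi arrays of CG1941 were over 4 times the Canton S arrays.

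A gene regulator and a protease came next in otd-uvi. NFAT (153719_at), the fly relative of the vertebrate NFAT transcription factors, read 15.5 and 13.5 in the wild type and 60.0, 73.0 and 53.9 in the mutant, or 4.28-fold. The serine protease gene flz (filzig, 155018_at), which acts in shaping the lining of the tracheal tubes, read 18.4 and 15.99 in the wild type and 62.2, 76.4 and 66.1 in the mutant, or 3.96-fold. These were the smallest gaps among the 9: the lowest otd-uvi array was 3.48 times the brighter Canton S array for NFAT and 3.37 times for flz.

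The other 4 probe sets on in otd-uvi have no role stated here, and 1 of them had the widest gap in this direction. CG14743 (146831_at) read 4.24 and 5.93 in the wild type and 234, 509.5 and 483 in the mutant, at least 41.9-fold higher. On otd-uvi replicates 1, 2 and 3 it stood 39.5, 86.0 and 81.5 times above the brighter Canton S array, and replicate 1 was about 2.18 times dimmer than replicate 2. Its otd-uvi level lay at percentile 92.4 of an array, whereas the 9 members had a median percentile of 69.3. The unnamed 151404_at read 4.66 and 7.59 in the wild type and 70.6, 101 and 96.4 in the mutant, at least 9.57-fold higher. CG1143 (148057_at) had nearly equal Canton S signals of 8.72 and 8.71 against 63.3, 95.9 and 86.0 in otd-uvi, at least 8.74-fold. Both were under the brightest control on each Canton S array and over the on limit in otd-uvi. CG3649 (147720_at) read 13.6 and 8.36 in the wild type and 65.2, 74.6 and 104 in the mutant, or 7.46-fold.

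In the other direction, Cyp6a17 and an unnamed probe set went from bright to background. Cyp6a17 (152313_at), a P450 gene known from temperature preference in flies, read 238 and 312 in the wild type and 1.23, 1.22 and 1.36 in the mutant. All 3 otd-uvi signals were far under the brightest control of their arrays, which sets the bound at 16.99-fold or more, although the dimmer Canton S array was 175 times the brightest otd-uvi array. The unnamed 151860_at was the brightest member of either direction, at 1096 and 1138 in Canton S, or percentile 97.4 of an array. In otd-uvi it read 7.79, 5.08 and 5.89, so it was at least 69.6-fold higher in Canton S. These 2 had gaps of 175 and 141 between the lowest on array and the highest off array, and the median gap of the 8 was 5.32.

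The other 3 enzyme genes on in Canton S were dimmer. Acyp2 (149974_at), an acylphosphatase gene, read 102 and 80.8 in the wild type and 5.06, 1.41 and 2.01 in the mutant, at least 5.67-fold higher. Cyp4p1 (143782_at), a second P450 gene, was tight in both groups, with 88.9 and 92.0 in the wild type and 16.8, 16.3 and 17.2 in the mutant, or 5.39-fold. Its otd-uvi signal was above the brightest control on replicates 2 and 3. CG7900 (149474_at), a predicted amidase gene of the fatty acid amide hydrolase family, read 51.5 and 63.9 in Canton S, the lowest on level of all 17, and 5.95, 4.93 and 13.9 in otd-uvi, at least 3.58-fold.

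The last 3 members are genes of signalling. EcR (146672_at), the ecdysone receptor gene, read 69.2 and 79.6 in the wild type and 11.9, 12.6 and 11.5 in the mutant, or 6.19-fold. Snoo (145997_at), a relative of the Ski and Sno co-repressors of TGF-beta signalling, read 70.1 and 55.7 in the wild type and 6.97, 6.87 and 17.5 in the mutant, or 6.63-fold. Replicate 3 of otd-uvi was the one close to the off limit, and the gap of Snoo, 3.18, was the smallest of all 17. Cngl (145117_at), a gene for a cyclic nucleotide-gated channel-like protein, read 64.1 and 68.2 in the wild type and 14.0, 13.4 and 15.3 in the mutant, or 4.65-fold. Of these 3 genes, all had signals on at least 1 otd-uvi array above that array's brightest control.

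**Figure D2:**
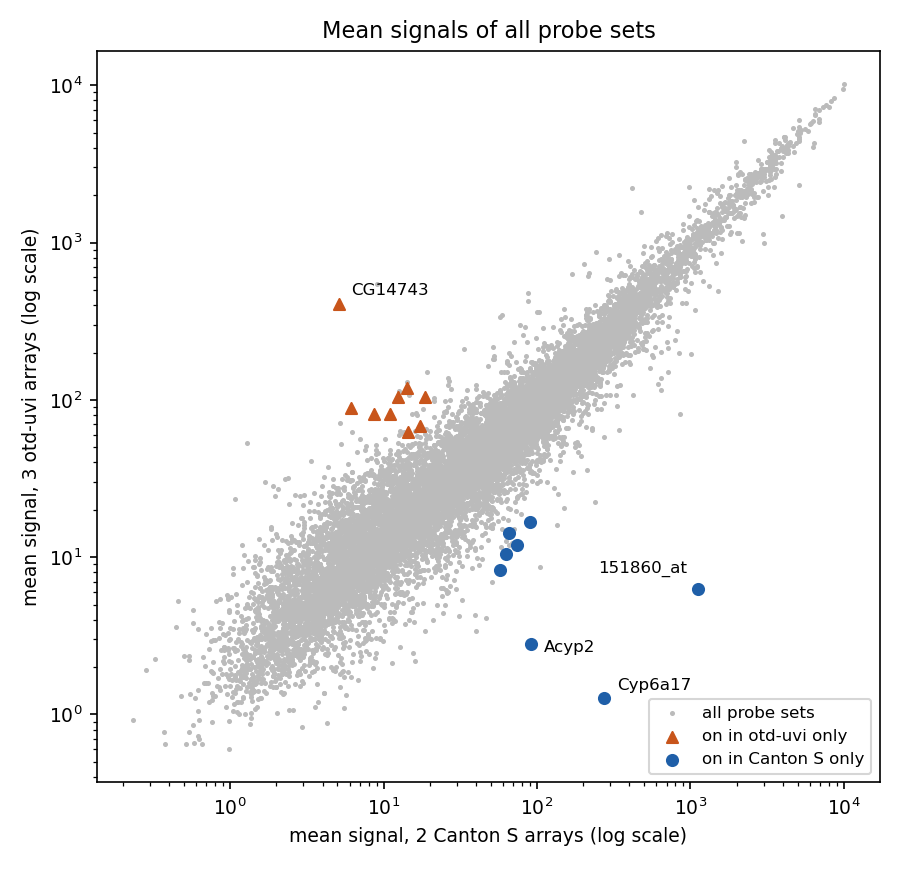
Mean signal of every probe set on the 2 Canton S arrays (horizontal, log scale) and the 3 otd-uvi arrays (vertical, log scale), with probe sets on in otd-uvi only as triangles and those on in Canton S only as circles. CG14743, 151860_at, Cyp6a17 and Acyp2 lie farthest from the diagonal among the marked probe sets.

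Within the on groups the arrays differed by less than the strains did, but the limits required a gap between the strains of every member. The highest on array exceeded the lowest by a factor of 1.23 to 2.18 for the 9 probe sets on in otd-uvi (median 1.43, 3 arrays) and by 1.04 to 1.31 for the 8 on in Canton S (median 1.20, 2 arrays). Replicate 2 of otd-uvi was the brightest for 7 of the 9, and replicate 1 the dimmest for 5. Replicate 2 of Canton S was the brighter for 6 of the 8. Among the off arrays of those 8, otd-uvi replicate 2 was the dimmest for 7 and replicate 3 the brightest for 5. Of the 17, 3 of the 9 probe sets on in otd-uvi, and 5 of the 8 on in Canton S, stayed under 100 on every array.

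Another probe set for the same gene existed for 4 members, and none of the 4 met the limits. EcR had a second probe set (154377_at) that read 55.7 and 112 in the wild type and 47.1, 50.7 and 37.2 in the mutant. Its groups did not overlap and its log2(signal + 8) difference, otd-uvi minus Canton S, was -0.73 (SE 0.33), against -2.04 (SE 0.27) for the member. Without Canton S replicate 2 that difference was -0.27. For Snoo the second probe set (153083_at) read 54.0 and 31.3 in the wild type and 23.4, 39.7 and 23.9 in the mutant, with overlap. For Cngl the second one (145116_at) read 27.6 and 18.5 in the wild type and 22.7, 25.0 and 23.6 in the mutant, where the strains overlapped as well. Ugt35B1 had a second probe set (141869_at) that was dim everywhere, at 2.77 and 1.61 in the wild type and 3.04, 4.99 and 2.04 in the mutant. In these 4 genes, then, 1 probe set of 2 met the limits. The transcripts that each probe set covers were not analysed here. The remaining 11 named members have a single probe set each.

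**Figure D3:**
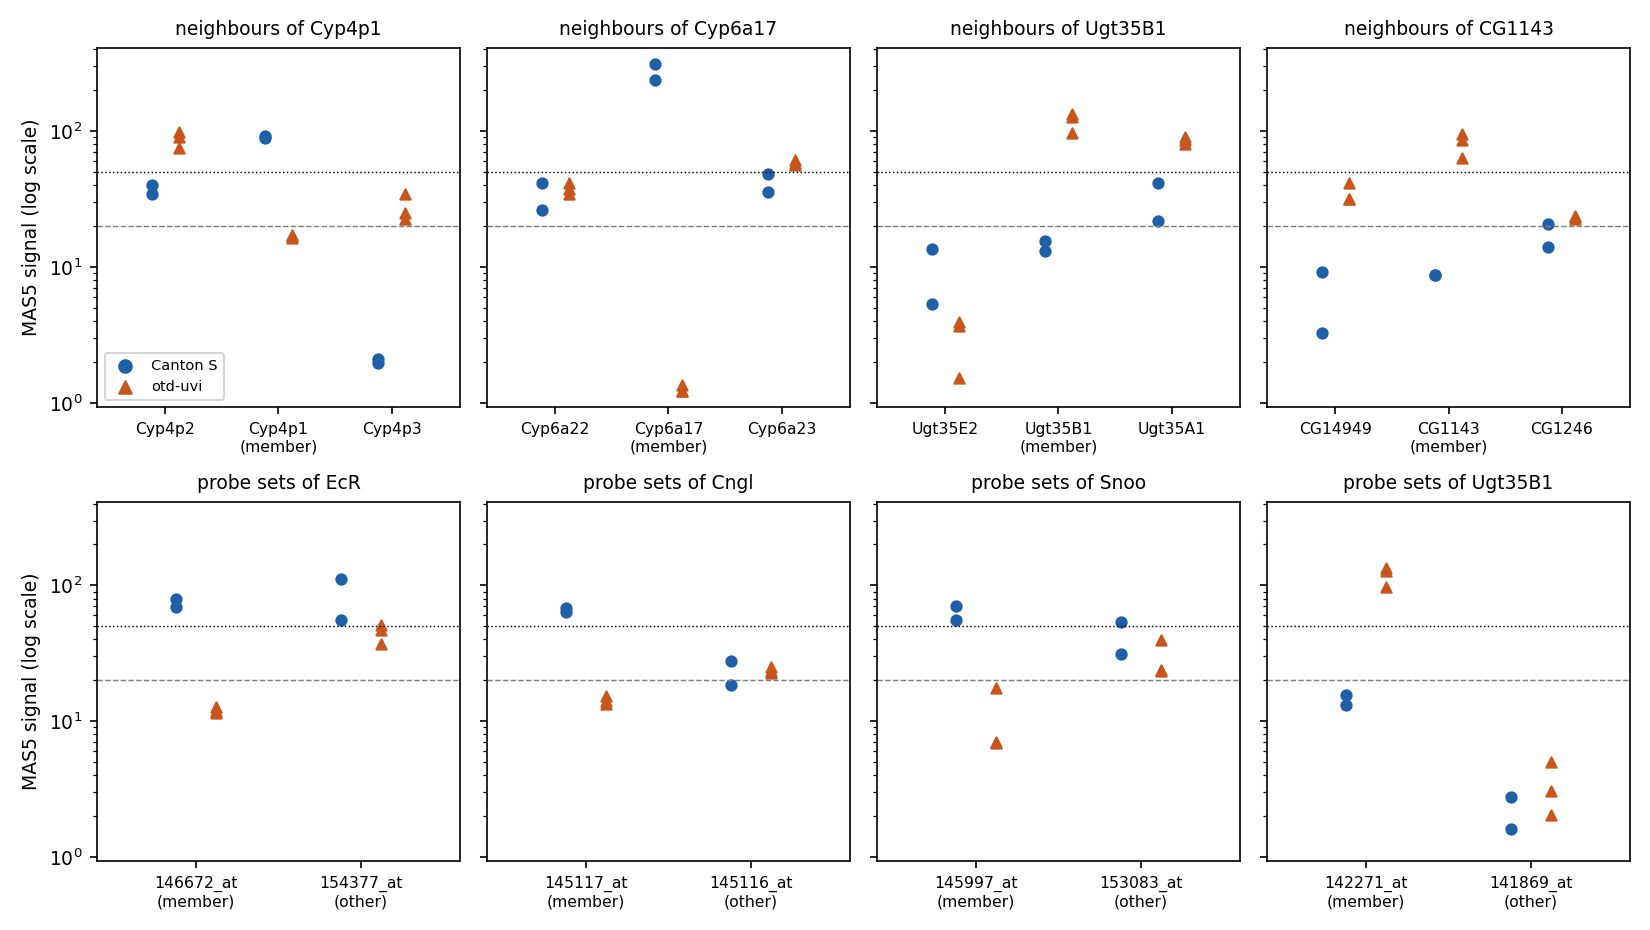
Signal (MAS5, log scale) on Canton S arrays (circles) and otd-uvi arrays (triangles), with the limits for off (20, dashed) and on (50, dotted). The upper panels show 4 members between their nearest annotated genes with a probe set, where Cyp4p2 and Cyp4p3 lie higher in otd-uvi and Cyp4p1 between them lower. The lower panels show both probe sets of EcR, Cngl, Snoo and Ugt35B1, and in each gene the second one is outside the limits.

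Genes next to the members mostly did not share their pattern. The nearest annotated gene with a probe set on each side, by gene order in RefSeq's Release 6 assembly, gave 30 neighbours for the 15 named members, with 34 probe sets. The groups did not overlap for 35.3% of these 34, against 34.0% of all probe sets: 6 went the same way as the member and 6 the opposite way. By limma 1 of the 34 had an adjusted p under 0.05. Their median absolute log2 difference was 0.15, against 0.26 for all probe sets.

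In the Cyp4p group neighbouring paralogs went opposite ways. Cyp4p1 was on in Canton S, while Cyp4p3 (146873_at), next to it, read 2.12 and 1.97 in the wild type and 22.4, 34.3 and 25.2 in the mutant. Its wild-type signals were under the brightest controls, so the rise is given as a bound, at least 2.91-fold (limma adjusted p = 0.0363). Cyp4p2 (152833_at), on the other side, read 40.5 and 34.6 in the wild type and 89.9, 98.0 and 75.0 in the mutant, a log2 difference of 1.07 (SE 0.23, limma adjusted p = 0.110). Both kept their sign in every other setting tried, and Cyp4p3 passed in 2 of 11, neither of them a fit without 1 array. Probe sequences were not available here, so signal shared between such close relatives was not tested.

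The paralogs on either side of Cyp6a17 differed less than it did. Cyp6a22 (153516_at) read 41.3 and 26.3 in the wild type and 41.5, 34.2 and 37.8 in the mutant, with overlap. Cyp6a23 (147225_at), on the other side, read 35.6 and 48.7 in the wild type and 58.3, 56.5 and 61.3 in the mutant, higher without overlap and so opposite to Cyp6a17. Its log2 difference was 0.42 (SE 0.25, limma adjusted p = 0.470). The 2 neighbours thus read 34.2 to 61.3 on the same otd-uvi arrays where Cyp6a17 read 1.22 to 1.36.

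Beside Ugt35B1, its relative Ugt35A1 (153987_at) read 41.8 and 21.9 in the wild type and 81.0, 91.2 and 86.5 in the mutant, the same direction as the member. The log2 difference was 1.29 (SE 0.28, limma adjusted p = 0.111). Ugt35E2 (142272_at), on the other side, was dim and lower in otd-uvi, at 13.5 and 5.33 against 1.53, 3.65 and 3.92. The neighbour of CG1143, CG14949 (148056_at), read 9.17 and 3.27 in the wild type and 31.9, 41.3 and 31.6 in the mutant, again in the member's direction. Its wild-type signals were at or under the brightest controls, and it was at least 3.76-fold higher in otd-uvi (limma adjusted p = 0.0824). CG1246, on the far side of CG1143, was also higher in otd-uvi without overlap, by a log2 difference of 0.31 (SE 0.28, limma adjusted p = 0.632). The paralogs beside CG1941 and CG7900 stayed dim in both strains: Dgat2 was at 8.03 or less and CG7910 at 5.85 or less on every array. The other neighbours whose groups did not overlap had log2 differences under 0.5 in size, and none passed in limma. Stt3A beside Cbs, at 0.33, and Ars2 (142964_at) beside EcR and puc beside CG7900, at -0.19 and -0.22, went the same way as the member, while CG13531 beside CG3649, at -0.45, and DNAlig4 beside NFAT, at -0.26, went the opposite way.

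Cyp6a17 and Ugt35B1 had the largest differences of their large enzyme families. Both are members chosen for a wide gap in these signals, so this rank is no test. The family counts of calls below include members, which the choice favours. Of 81 measured cytochrome P450 genes (Cyp), each by its brightest probe set, 1 rose and 4 fell by limma (adjusted p under 0.05), where 38 and 47 of all 10844 genes did, or 0.350% and 0.433%. Cyp6a17 and Cyp4p1 were among the 4 that fell. The groups did not overlap for 20 genes higher and 13 lower in otd-uvi, together 40.7% against 33.8% of all genes. Of these, Cyp316a1, Cyp12a5, Cyp4d1 and Cyp313a5 (higher) and Cyp303a1 (lower) never exceeded their array's brightest mouse or yeast control. Of the 5 calls, that of Cyp6a17 alone passed in every fit that left out 1 array. The family's median log2 difference was 0.11, and 0.06 over all genes. It was -0.06 when the dimmest 40% of probe sets were left out, which shifted all probe sets to a median of -0.06. Cyp6a2 (143127_at), known from insecticide resistance, came close to membership, at 111 and 158 in the wild type and 10.2, 20.6 and 17.1 in the mutant. Of 33 Ugt genes 1 rose, Ugt35B1, and none fell (its call did not hold in any fit without 1 otd-uvi array). Without overlap 11 were higher and 3 lower, together 42.4% against 33.8% of all genes. Among them, Ugt37E1, Ugt304A1, Ugt35E1 and Ugt303B1 (higher) and Ugt49B2 (lower) likewise never exceeded the brightest control of their array. The median of the Ugt genes was 0.18, and 0.17 without Ugt35B1. Off in both strains were 15 of the 33 Ugt genes (45.5%) and 24 of the 81 Cyp genes (29.6%), against 22.2% of all genes. On in both were 4 Ugt genes (12.1%) and 24 Cyp genes (29.6%), against 38.9%.

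**Figure D4:**
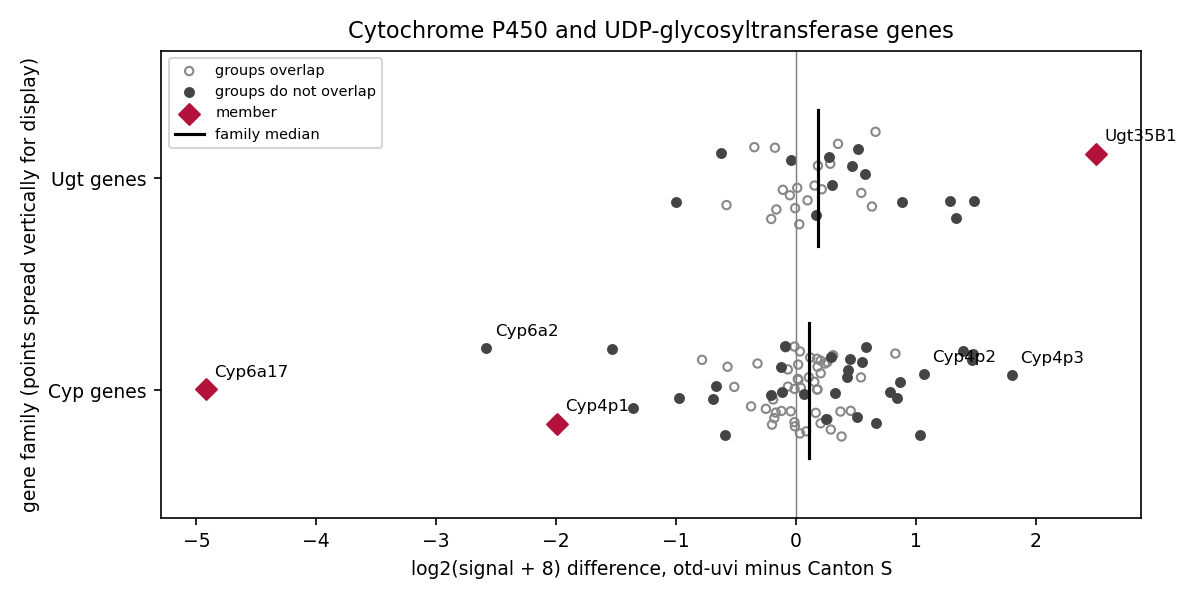
Log2(signal + 8) difference, otd-uvi minus Canton S, of 81 Cyp and 33 Ugt genes, 1 point each at its brightest probe set; filled points have groups that do not overlap, diamonds are members and the vertical bars are family medians (0.11 and 0.18). Cyp6a17 lies at -4.92, Cyp4p1 at -1.99 and Ugt35B1 at 2.51.

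Just outside the limits stood probe sets that missed on 1 array. On the side of otd-uvi, Mdr49 (141779_at), an ABC transporter gene, read 13.9 and 11.6 in the wild type and 74.8, 48.8 and 65.6 in the mutant. The phenoloxidase gene PPO2 (142220_at) missed with 47.9 on otd-uvi replicate 1, and CG9445 (151151_at) with 47.2 on the same array. On the side of Canton S, the potassium channel gene Elk (142264_at) read 49.9 and 67.2 in the wild type and 7.996, 15.7 and 10.96 in the mutant. Cyp6a2 missed with 20.6 on otd-uvi replicate 2, and NT5E-2 (151726_at) with 48.5 on Canton S replicate 2. Just inside were flz, NFAT and Cbs with gaps of 3.37, 3.48 and 4.46, and Snoo, CG7900 and Cngl with gaps of 3.18, 3.71 and 4.18. Values on both sides of the limits were thus close to each other.

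The 15 named members lay on several chromosome arms, most often on 2R. Arm 2R held 7 of them (CG14743, CG3649, CG1941, flz, Cyp6a17, EcR and Cyp4p1), where 19.9% of the probe sets with a known arm lie. Arm 3R held 3 (Ugt35B1, Acyp2 and CG7900), the X chromosome 3 (Cbs, NFAT and Cngl), and 2L and 3L 1 each (Snoo and CG1143). No member was the nearest neighbour of another.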

How the data were processed

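Total RNA of pupal heads was labelled with biotin and hybridised to Affymetrix arrays, 1 per sample. The values deposited by the authors are linear signal intensities, made with MAS5 per the labels and scaled between arrays. Version, settings, scaling target and detection calls are not given in the sources used here. Strain and replicate come from the sample titles, and replicates are separate RNA extractions. The members, lists and tests were chosen with earlier results of these data known. Tests covered 13966 probe sets, without the array's 44 controls. The annotation table gave 1 gene for 12443, several for 327 and none for 1196, and 12394 names were updated by gene identifier. No genome build is named with the deposited data, so no positions are given beyond chromosome arm and gene order in RefSeq. The fit was limma 3.58.1 in R 4.3.3 on log2(signal + 8), 8 being the rounded 20th percentile of all signals, with strain as the only term, an intensity trend and Benjamini-Hochberg adjustment over all probe sets. It was run on simulated data with large changes planted only in probe sets bright in Canton S. Smaller changes, and probe sets dim in Canton S, were not covered. Lower bounds compare the mean log2 on signal with the mean, over off arrays, of the higher of the signal and the array's brightest mouse or yeast control. All members are named; near misses are the 3 in each direction with the smallest summed log2 shortfall. Neighbours are named where groups do not overlap or where they are paralogs. Families are genes whose symbol has the stem, a number and a letter, 1 probe set per gene. Genes named within families beyond these rules were chosen after their values were seen. The alternatives are given in the closing section.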

Additional observations from a re-analysis of the deposited data

How the results depend on the processing

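All 17 members kept the sign of their log2 difference in all 12 other settings. The limits that chose the members fix that sign in every fit without 1 array, so it tests nothing there. With an off limit of 10 the limits admitted 3 probe sets in each direction, all of them members. With an on limit of 100 they admitted 1 on in otd-uvi and 2 on in Canton S, all members. With the array's brightest mouse or yeast control as the off limit they admitted 3 and 5, of which 3 and 4 were members. Leaving out 1 array, they admitted 11 to 40 on in otd-uvi and 8 to 19 on in Canton S, since fewer arrays had to meet them. The limma count over all probe sets, 108, was 208 without the dimmest 40% of probe sets, 8 with the RNA degradation ratio as a covariate (added after seeing the data), and 2 to 22 without 1 array. Among the 17 members the count of 13 became 3 with that covariate and 2 to 4 without 1 array. Replicate numbers name separate extractions. Deviations of arrays of the same number correlated at -0.0045 for number 1 and 0.12 for number 2, and with the number as a block (otd-uvi replicate 3 then has no partner and no weight) 1 probe set passed, 151860_at, a member. Of the members, 151860_at passed in 12 of the 12 other settings and Cyp6a17 in 11. Signs turned for dim or near-zero neighbours and second probe sets. Leaving out 1 array, the log2 difference was -0.44 to 0.15 for Dgat2, -0.11 to 0.41 for Cyp6a22, -0.0097 to 0.71 for the dimmer Ars2 probe set and -0.16 to 0.26 for the second Cngl probe set. Under quantile normalization it was -0.010 for CG7910 and -0.14 for the second Cngl probe set, which was at -0.011 with median centring. The cause was not tested. Precision is limited by 5 arrays and, for the off signals, by background.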
